A study of Mus musculus with 2 samples.

Results

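Small nucleolar RNAs were examined in Vγ6 cells, a subset of γδ T cells that arises in the thymus around birth and carries a γδ receptor with the Vγ6 chain. The 58 rows described here were chosen by name and signal from 65956 rows. Each had a platform gene symbol starting Snord or Snora and a signal above 61.3 on the WT array or above 58.2 on the array of MHC class II KO cells. These limits are the background, set at the 95th percentile of 1228 olfactory receptor rows, and they correspond to log2 signals of 5.94 and 5.86. Of 66 Snord and Snora rows, 58 passed, and these stood for 55 RNAs. All further values are log2 signals, and a difference is always the array of MHC class II KO cells, called the KO array, minus the WT array.

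The cells came from thymi of C57BL/6 pups, 0 days old and either WT or MHC class II KO, and were isolated by flow cytometry. The knockout mice are without the surface molecules that present peptide to CD4 T cells. Each genotype had 1 array, so no difference below has an error, a replicate check or a test. Which class II gene was disrupted, and whether animals were pooled, is not stated by the sources read here. Of 10 genes listed for Vγ6 cells, 9 had a row of their own and all 9 were above background on both arrays. Among them were Tcrg-V6 (12.64 on the WT array and 12.33 on the KO array) and Cd3e (16.90 and 16.87). Cd3e, Cd3d and Cd3g are genes of T cells in general, so the 9 do not measure purity. Of the 9, Il17a, the cytokine gene, was lower on the KO array (10.85 and 9.28), Zbtb16 and Blk were higher by 0.47 each, and the median difference was 0.08. Markers of cell division and of double positive thymocytes also differed between the arrays. All 9 measured markers of dividing cells were higher on the KO array (median difference 0.73, from a median level of 10.85 to 12.16), as were the 6 of 7 double positive thymocyte markers above background (median 0.98, from 8.19 to 9.09, with Dntt and Ptcra above background on that array alone and Rag2 below it on both). Of the markers of other cells, 1 of 4 B cell, 1 of 5 myeloid, 1 of 2 red cell and 2 of 5 thymic epithelial genes passed, the last 2 on the WT array alone. The B cell gene Cd79b (10.08 and 10.19) and the red cell gene Hbb-y (6.09 and 5.87) passed on both arrays. The myeloid gene Lyz2 (5.86 and 6.23) passed on the KO array alone. The part of dividing and other cells in the small nucleolar RNA values was not tested. In sorted bulk cells, more cells of a type and more RNA per cell cannot be told apart.

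Small nucleolar RNAs are short non-coding RNAs that work with proteins in the nucleolus. RNAs with C and D boxes, named Snord, mostly guide the addition of methyl groups to the ribose of ribosomal RNA. RNAs with H and ACA boxes, named Snora, mostly guide the change of uridine to pseudouridine. A few instead help to cut the precursor of ribosomal RNA. Most mammalian small nucleolar RNAs are cut out of the introns of other genes, called hosts, which often encode ribosomal proteins or non-coding RNAs, whereas U3, U8 (Snord118) and U13 (Snord13) are transcribed from promoters of their own.

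A stretch of 1 member could be shown from the RefSeq tables of build GRCm38.p6. The 56 bases annotated as Snora19 lie within the hairpin of Mir3084-2, at chr19:60774329-60774397 on the minus strand, and are in capitals at positions 13 to 68 of its 69 bases.
Mir3084-2: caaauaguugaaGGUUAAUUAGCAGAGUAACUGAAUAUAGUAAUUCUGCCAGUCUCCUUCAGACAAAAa
The Snora19 row stood at 7.29 in WT and 7.19 in KO cells. Both arrays thus gave it nearly the same signal, and a row that names Snora19 and the microRNA together carried identical values.

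Among the members, 3 had KO signals at least 2-fold above WT, and 0 had KO signals that far below. The first share was 0.813% and the second 1.14% over all 14755 rows with 1 symbol above background. At 1.5-fold, 15 members were higher and 6 lower, against 4.11% and 3.17% of all these rows. The count of 15 includes Snord35b by its measured value. With values under background raised to it, 14 were higher. The members' median difference was 0.08, beside 0.04 for all rows with 1 symbol, so the members lay further apart from one another without a common shift. Their differences ran from -0.90 to 1.68, with an SD over rows of 0.56, compared with 0.32 over 9396 protein-coding rows. Some other small RNAs also spread widely, with an SD of 0.73 over 6 rows of small Cajal body RNAs (Scarna) and 0.47 over 295 microRNA rows. It was 0.67 over 470 rows of predicted small nucleolar RNA genes, but 0.36 over the 362 of these outside the Snhg14 gene. Others did not, with 0.32 over 10 U3 rows, 0.27 over 14 rows of spliceosomal RNAs (Rnu) and 0.15 over 74 rows of 5S ribosomal RNA. Over the 38 rows that name a Snord or Snora gene together with another gene it was 0.22. The rule took in rows above background on either array, and 2 members, Snord35b and Snord111, passed on the KO array alone.

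**Figure D1:**
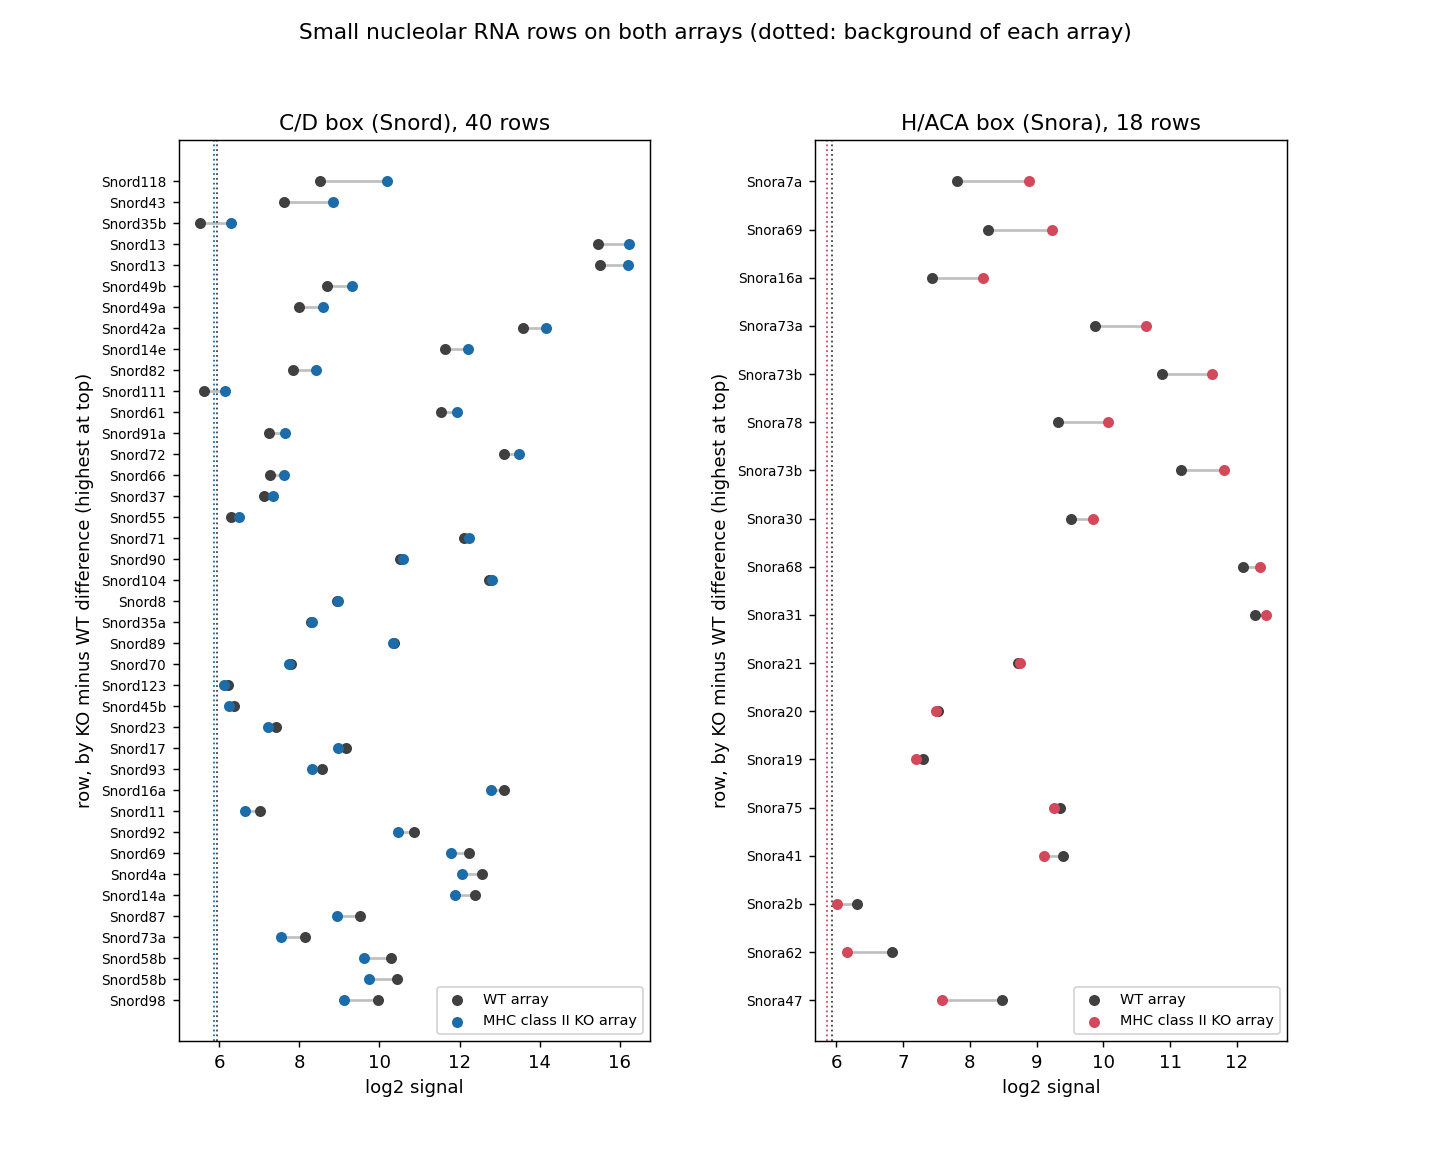
Log2 signal of each of the 40 Snord rows (left) and 18 Snora rows (right) on the WT array (dark points) and the KO array (coloured points), ordered by their difference, with 1 array per genotype and separate horizontal scales. Snord118 has the widest gap to the right at 1.68, Snora47 the widest to the left at -0.90, and the dotted lines mark the background of each array.

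The member with the highest difference was Snord118, the U8 RNA, which is needed to mature the RNAs of the large ribosomal subunit. Its row went from 8.51 on the WT array to 10.18 on the KO array, 3.20-fold higher. A second row of the same symbol was below background on both arrays, at 5.39 and 5.37, so the difference was seen in 1 of 2 rows. RefSeq places Tmem107, a membrane protein gene, next to Snord118, and its row went from 6.10 to 6.40.

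Snord13, the U13 RNA that guides acetylation of the small subunit's ribosomal RNA, was the brightest member. It had 2 rows, which went from 15.50 to 16.19 and from 15.47 to 16.23, and both were higher on the KO array (differences 0.69 and 0.76). These signals on the KO array exceed what a 16-bit scanner reads (65535), and how the deposited scale was made is not fully described. The neighbouring gene Tti2 differed by 0.38.

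The U3 RNA, a box C/D RNA that helps to release the small subunit's RNA from its precursor, is outside the members because the platform calls it Rnu3. It is given here because Snord118 and Snord13 share with it a promoter of their own, a grouping made after the values were seen. All 10 U3 rows were above background, with 6 distinct pairs of values, and all were higher on the KO array, by 0.38 to 1.25. Of all rows with 1 symbol, 0.813% were at least 2-fold higher. Several Rnu3b copies had identical values, so the 8 U3 rows at least 2-fold higher hold 4 distinct pairs of values. Among these 8, every Rnu3b row differed by 1.25, whatever its level, and the Rnu3a row by 1.19. The pairs may therefore not be separate measurements. The fourth member without a containing gene in RefSeq, Snord89, did not share this pattern and went from 10.37 to 10.33.

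Other small RNAs with promoters of their own were spread. Of the 14 other rows with a symbol starting Rnu, the RNAs of the spliceosome, all had differences above 0 (median 0.32). Rnu11, of the minor spliceosome, went from 11.64 to 12.77, whereas the 2 rows of Rnu6 differed by 0.02 each. Of RNAs made by RNA polymerase III outside the spliceosome, Rn7sk (0.00 and -0.01), Rmrp (-0.07) and Rpph1 (-0.05) were near 0. The Y RNAs were higher, with Rny1 at 0.09 and 0.27 and Rny3 at 0.54 in 2 rows of identical values. Terc, the H/ACA box RNA of telomerase, was nearly level (6.18 and 6.24), not far above background.

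**Figure D2:**
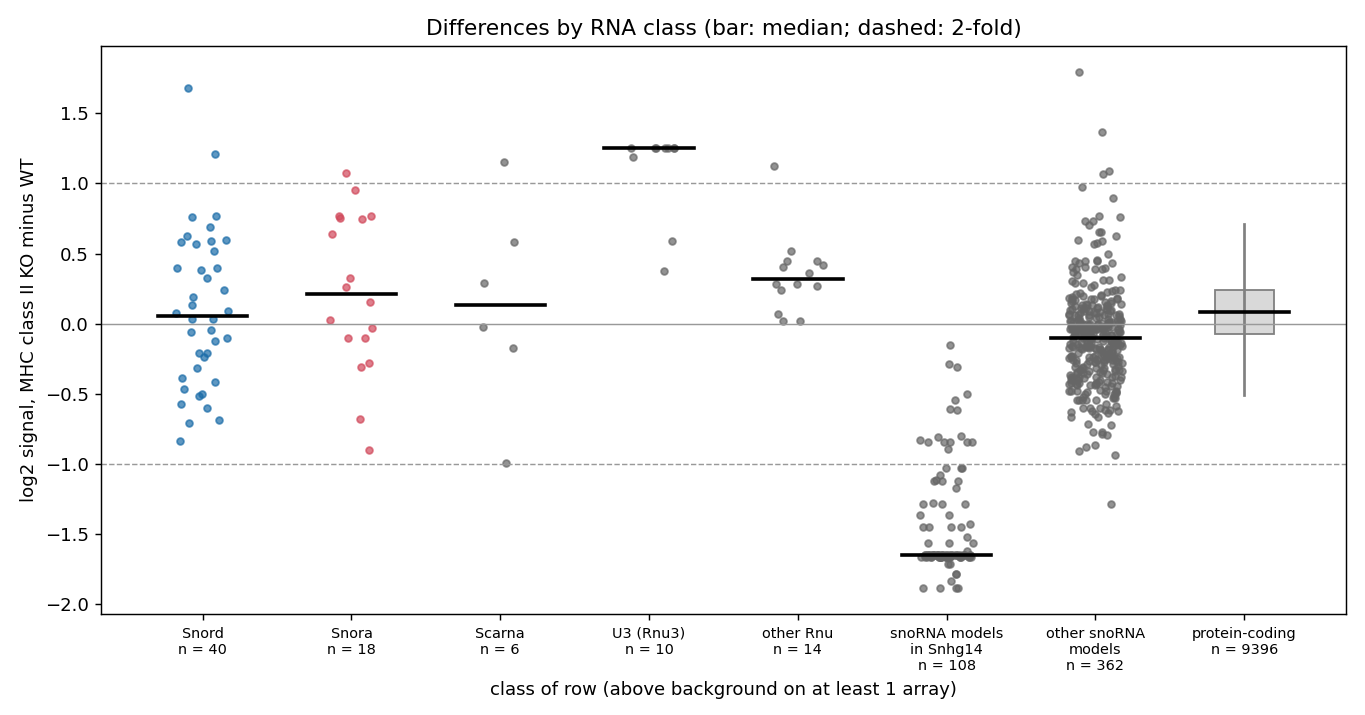
Difference in log2 signal, KO minus WT, for rows above background on at least 1 array, by class of RNA, with a point per row, a bar at the median and dashed lines at 2-fold. Protein-coding rows are drawn as a box of the middle 50% with a line over the middle 95%, the U3 rows cluster at 1.25, and predicted snoRNA models within Snhg14 lie below 0 around a median of -1.65.

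The box C/D and box H/ACA classes overlapped. On the WT array the 40 Snord rows had a median of 9.05 (quartiles 7.57 and 11.75) and the 18 Snora rows 9.02 (7.60 and 9.79). On the KO array the medians were 9.05 and 9.17. The Snord median was thus above the Snora median by 0.03 on the first array, while on the second the difference was -0.12. Signals of different rows depend on their probes, so these levels describe the array and not the abundance of the RNAs, and the sign of both gaps turned with another background filter. By the mean of both arrays, the brightest rows after Snord13 were Snord42a, Snord72 and Snord16a among the C/D box RNAs, and Snora31, Snora68 and Snora73b among the H/ACA box RNAs.

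The differences of both classes spread to either side of 0. The median was 0.06 for Snord (quartiles -0.33 and 0.53) and 0.21 for Snora (-0.10 and 0.75), a gap of -0.15 that is small beside the quartiles. At least 1.5-fold higher were 8 Snord and 7 Snora rows, and at least 1.5-fold lower 4 and 2. The shares over all rows with 1 symbol were 4.11% and 3.17%. Above 0 lay 22 of 40 Snord and 11 of 18 Snora rows. This is near the share of all rows with 1 symbol (8328 of 14755) and of protein-coding rows (6008 of 9396). RefSeq lengths, with a median of 68 bases for Snord and 124 for Snora, had a Pearson correlation of 0.27 with the difference across the 58 rows, which share the same 2 arrays.

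Among H/ACA box RNAs, Snora7a stood highest, going from 7.81 to 8.88, a 2.11-fold gap. It lies in Rpl32, a ribosomal protein gene. Snora69, in the ribosomal protein gene Rpl39, went from 8.27 to 9.23. Its host differed by 0.05, from which Snora69 thus stands well apart. Snora16a, in the non-coding host Snhg12, went from 7.43 to 8.20, and Snora78 from 9.32 to 10.07. Both were higher on the KO array, and Snora30 (9.52 and 9.84) less so. A row that names Snhg12 together with Snora44, Snora61 and Snord99 was slightly lower on the KO array (10.68 and 10.56).

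Snora73a and Snora73b, known as U17 or E1, are H/ACA box RNAs that act in early cutting of the ribosomal RNA precursor rather than in pseudouridine formation. Snora73a went from 9.88 to 10.64, and the 2 rows of Snora73b from 11.16 to 11.80 and from 10.88 to 11.63. All 3 rows were higher on the KO array, by 0.64 to 0.77. The 2 RNAs are near copies of each other, so their rows may read the same molecules. They share the host Snhg3, which had no row with its symbol alone. A row that names Snhg3 and Snora73a together was lower on the KO array (10.66 and 10.49).

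At the low end of the H/ACA class, Snora47 went from 8.48 to 7.58. RefSeq places it within Zbed3, whose row also was lower, by -0.45, and was above background on the WT array alone. Snora62, in Rpsa, a ribosomal protein gene, went from 6.84 to 6.16 while Rpsa itself was level at 15.44 on both arrays. Smaller negative differences belonged to Snora2b (-0.31), Snora41 (-0.28) and Snora75 (-0.10). Snora20 (-0.03) and Snora21 (0.02) were nearly level, the latter with a sign that turned under quantile normalization and the loess correction.

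Among the C/D box RNAs other than U8 and U13, Snord43 stood highest, going from 7.62 to 8.83, a 2.31-fold gap. It lies in Rpl3, a ribosomal protein gene, as does Snord83b, which was below background on both arrays at 5.26 and 5.25. Snord35b went from 5.53, below background, to 6.29, which bounds it at 1.28-fold higher or more. Its close relative Snord35a, from the Rpl13a gene, was level, at 8.29 and 8.32 (its sign turned under quantile normalization and the loess correction).

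At the low end of the C/D class, Snord98, within the cell cycle regulator gene Ccar1, went from 9.96 to 9.13, while Ccar1 differed by 0.08. Snord58b had 2 rows, which went from 10.44 to 9.73 and from 10.30 to 9.61, and both were lower on the KO array. Snord73a went from 8.15 to 7.54 and Snord87 from 9.51 to 8.93. Snord14a (-0.52), Snord4a (-0.50), Snord69 (-0.46) and Snord92 (-0.41) followed. The sign of each of these was kept when differences were centred, quantile normalized or loess corrected. The largest shift of any member under these steps was 0.064, so signs this far from 0 could not have turned. For 3 RNAs with 2 rows above background, Snora73b, Snord13 and Snord58b, the rows' differences lay within 0.11, 0.07 and 0.02 of each other, which speaks only for rows of the same RNA on the same arrays.

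Relatives and RNAs of 1 host did not always go together. Snord42a and Snord4a both lie in Rpl23a, a ribosomal protein gene, yet Snord42a went from 13.58 to 14.17 and Snord4a from 12.56 to 12.05. In Ncl, the gene for the nucleolar protein nucleolin, Snord82 was higher on the KO array (7.85 and 8.42), while Snora75 (9.36 and 9.26) and Ncl itself (14.45 and 14.38) were nearly level. The U14 family has a part in making the small subunit's RNA, and its 2 members here lie in different hosts. Snord14a, in Rps13, went from 12.40 to 11.88. Snord14e, in Hspa8, went from 11.63 to 12.21, and Hspa8 itself differed by 0.23. Snord49a and Snord49b, on the other hand, lie in the same host, 2410006H16Rik, and had like differences, 0.60 and 0.62. A row that names this host and Snord65 together differed by 0.14 (12.55 and 12.69). In Nop58, a core protein gene of the C/D particles, Snord70 (-0.06) was level and Snord11 (-0.39) lower.

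The starts of the hosts of the pairs whose differences lay close together, Snord49a with Snord49b and Snora73a with Snora73b, are shown from RefSeq (GRCm38.p6), 50 bases before to 50 after the start. They lie at chr11:62602827-62602926 on the plus strand and chr4:132353637-132353736 on the minus strand. Capitals mark the motifs CTTTC, as found in tracts rich in C and T at the starts of many ribosomal protein genes, and TATAAA, the TATA box core.
2410006H16Rik: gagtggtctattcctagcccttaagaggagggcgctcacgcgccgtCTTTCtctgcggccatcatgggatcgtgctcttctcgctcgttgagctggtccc
Snhg3: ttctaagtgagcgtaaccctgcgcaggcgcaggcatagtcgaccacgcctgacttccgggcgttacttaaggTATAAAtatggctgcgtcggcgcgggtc
The CTTTC match began at -4 and the TATAAA match at 23 from the annotated start. The TATAAA match thus lies after that start, and whether it acts as a TATA box was not tested. Searched on both strands, CTTTC was found in 23.4% of all 32851 windows of this length and in 31.8% of 44 windows of hosts, and TATAAA in 4.94% and 11.4%. These motifs cannot overlap each other, and a match is a description only.

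Of the 58 members, 54 lay within a RefSeq gene, 18 of them within a gene for a ribosomal protein. A containing gene with a row of its own above background was found for 30 members in 28 genes. Strand was not known, so a containing gene on the other strand is counted as well. These genes differed by -0.45 to 0.42 (median 0.05) and 0 of 28 was 1.5-fold apart, where the share over all rows with 1 symbol was 7.28%. So few genes cannot be told from that share. The 30 members within them differed by -0.90 to 0.96, and 6 were at least 1.5-fold apart. In 25 of 30 the member was further from 0 than its containing gene. Across these 30 pairs, some of which share a host and all of which share the 2 arrays, the Pearson correlation was 0.53 and Spearman's rho 0.43. Pairs far from the line of equal differences were Snora69 in Rpl39, Snord98 in Ccar1 and Snora62 in Rpsa. Snord61 (0.40) in Rbmx (0.04) and Snord91a (0.40) in Tsr1 (0.01) also stood above their hosts, while Snord87 followed Snhg6 (-0.42) and Snora78 followed Snhg9 (0.42) in sign.

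**Figure D3:**
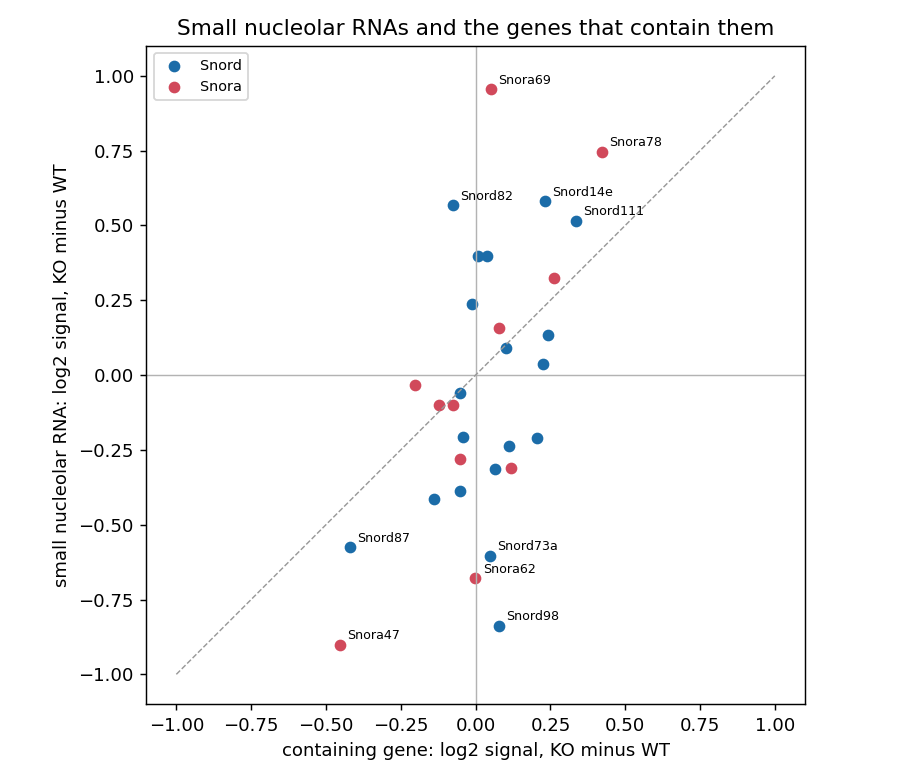
Difference in log2 signal, KO minus WT, of 30 small nucleolar RNA rows (vertical) against that of the RefSeq gene that contains each (horizontal), with the line of equal differences dashed. Points stretch along the vertical from -0.90 to 0.96 but along the horizontal only from -0.45 to 0.42.

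Genes for the proteins that work with these RNAs were measured too. In the box C/D core, Fbl, the gene for the methyltransferase fibrillarin, went from 14.71 to 14.61 and Nop58 from 14.14 to 14.09, while Nop56 and Snu13 had no row with their symbol alone. In the box H/ACA core, Dkc1, the gene for the pseudouridine synthase dyskerin, went from 12.74 to 12.92, and Nhp2 (0.05) and Nop10 (0.03) were level. Gar1 was lower by -0.35. Of 14 assembly and maturation factors, 13 were above background and none was 1.5-fold apart (median 0.13), beside the 7.28% of all rows, from which so short a list cannot be told apart. The furthest were Znhit3 (0.48), Shq1 (0.42), Rpap3 (0.33) and Pih1d1 (0.28). Of 20 genes of RNA polymerase I and early ribosome assembly, 19 were above background and none was 1.5-fold apart, with a median of 0.13 and the widest differences at Polr1b (0.45), Myc (0.41), Bop1 (0.32) and Polr1c (0.28). Of 14 non-coding host genes, 3 had a row of their own, Snhg5 (0.36), Snhg6 and Snhg9.

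The platform holds many more rows of predicted small nucleolar RNA genes, nearly all under Gm numbers, which the naming rule left out. RefSeq classes 470 such rows above background as small nucleolar RNA genes. Of these, 93 were at least 2-fold lower on the KO array, with 24 distinct pairs of values, and 92 of the 93 lie within Snhg14. The share over all rows with 1 symbol was 1.14%, from which the 0 of 58 members cannot be told apart. Snhg14 is the long imprinted transcript known to carry the Snord115 and Snord116 arrays, whose RNAs are made mainly in brain. The 108 rows above background within it went from a median of 7.01 to 5.99. Of these, 52 passed on the WT array alone and 0 on the KO array alone, so the filter itself fixed part of this direction. These rows repeat one another, however. They hold 35 distinct pairs of values, the 92 lower rows hold 23, and 33 of them share 1 pair. Some distinct pairs share a difference as well, such as -1.65 at WT levels of 7.26 and 7.85, so fewer may be separate measurements. On the KO array 43 of the 92 were not above background, and with values under background raised to it 56 were at least 2-fold lower. Snhg14 itself was below background on both arrays (5.78 and 5.46), and so was Snord64, a Snord row within it (4.91 and 4.28). Of 5 brain markers, Snap25, Syt1, Rbfox3 and Gfap were below background as well, while Mbp was above it on both arrays (6.29 and 6.26). These 92 rows are among 168 rows with 1 symbol that were at least 2-fold lower, and by distinct pairs of values they are 23 of 99. Outside Snhg14, the 362 predicted rows had a median difference of -0.10, with 4 rows at least 2-fold higher and 1 lower. The shares over all rows with 1 symbol were 0.813% and 1.14%.

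**Figure D4:**
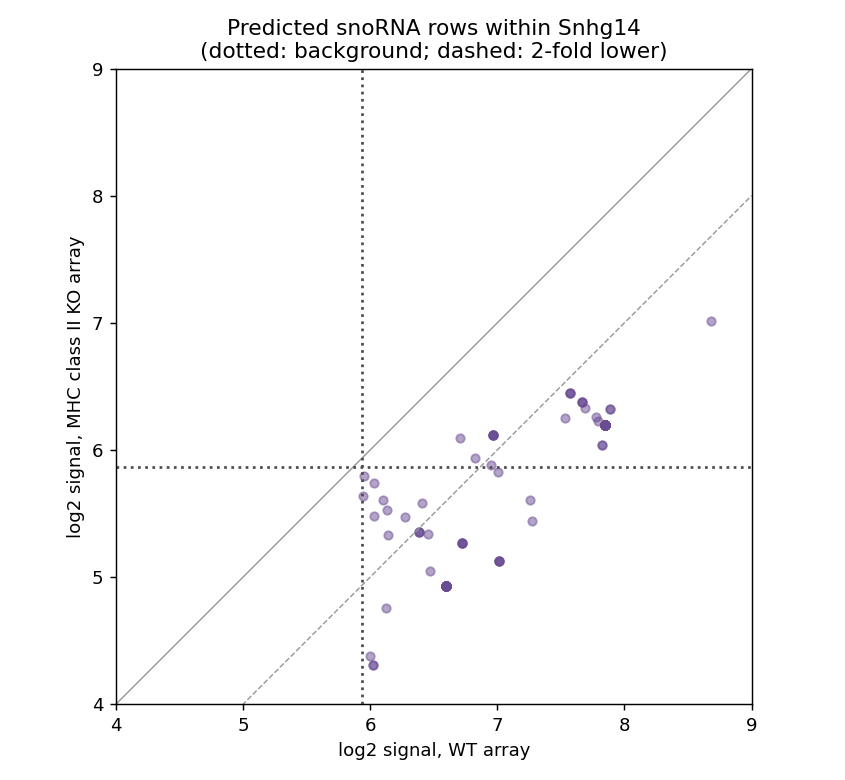
Log2 signal on the WT array (horizontal) and the KO array (vertical) of 108 rows of predicted small nucleolar RNA genes within Snhg14, with darker points where rows share values, dotted lines at the background of each array and a dashed line at 2-fold lower. The points lie below the line of equal signal, though 52 of the rows passed the background on the WT array alone, and 43 of the 92 rows at least 2-fold lower are under the background of the KO array.

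Near the background limit, the members just inside were Snord123 (6.21 and 6.11), Snord111 (5.63 and 6.15) and Snora2b (6.32 and 6.01), and just outside were Snord15a (4.95 and 5.81), the second Snord118 row and Snord83b. The remaining rows below background were Snord110, Snord85, Snord88c, Snord64 and Snora35.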

How the data were processed

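RNA from sorted Vγ6 γδ T cells was labelled for whole-transcript GeneChip arrays, per the labels' protocols. RMA and Affymetrix Expression Console 1.4.1 are named per the submitters' processing notes, without settings or genome build. The deposited values are linear intensities, 1 per row, from 6.45 to 487523. Some exceed the ceiling of a 16-bit scanner, for a reason not given in the sources used here, so folds may be on a rescaled range. With 1 array per group, the number of arrays limits the precision.

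Here the log2 was taken (Python 3.11.15, pandas 2.3.3, scipy 1.17.1). Symbols came from the platform annotation, which can be old, and rows naming several genes were left out. All 58 members matched RefSeq (GRCm38.p6), used for neighbours, gene class, lengths and sequences. Named were the 5 brightest and the 8 highest and lowest per class, rows near the limit, listed RNAs and core proteins, and up to 4 further members of each list. U3, U8, U13 and Snhg14 were grouped, and neighbours, motifs, the 0.1 limit below and members that share a host (with Snord89, Snord92, Snord61 and Snord91a) named, after values were seen. Members and lists were chosen with earlier results of these data known. Counting steps were tested on simulated data. Alternatives covered scaling, background filters, repeated rows and fold thresholds.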

Additional observations from a re-analysis of the deposited data

How the results depend on the processing

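Of 74 alternative values, 64 kept their direction and stayed within 1.5 times for counts or 0.1 for log2 medians. Part of the 64 could not have moved. Centring shifts every difference alike, so it leaves the gap between the class differences and both level gaps unchanged. The loess correction altered differences only, so the level gaps could not change under it. Alternatives that removed no row, named below, were fixed as well. At a 1.5-fold threshold 6 members were lower and 15 higher, and at 3-fold 1 was higher. Adding rows with several symbols gave a Snora median difference of 0.080, a gap between the class differences of -0.043 and a level gap on the WT array of 0.59. The level gap between Snord and Snora on the WT array was 0.32 over rows above background on both arrays and -0.21 with no background filter. On the MHC class II KO array it was 0.051 and -0.28. Both gaps changed sign with the filter, as rows with low signal left or entered the classes, so the order of the 2 classes by signal is not settled. The 2-fold counts of 3 higher and 0 lower were the same under every alternative of scaling, filter and row choice. No member carried the symbol Snord115 or Snord116, and no 2 members had identical values, so these alternatives removed nothing. Under quantile normalization and the loess correction the sign turned for Snora21, Snord35a and Snord8. No paired analysis was possible because each genotype had 1 array, and for the same reason no replicate could be left out.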

Other observations

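Small Cajal body RNAs, which guide the modification of spliceosomal RNAs and are named Scarna, were above background in all 6 rows. Scarna9 stood above its WT signal in MHC class II KO cells (9.16 and 10.31) and Scarna10 lower (9.85 and 8.86), while the median of the 6 was 0.13. Of 74 rows of 5S ribosomal RNA, 66 had differences above 0 (median 0.21), but the rows hold 19 distinct pairs of values. Both quartiles of the 5S difference were 0.21 as well, so these pairs may repeat the same readings. The 295 microRNA rows above background had a median of -0.13, with 8 rows at least 2-fold higher and 8 lower. The shares over all rows with 1 symbol were 0.813% and 1.14%. Of 42 rows that name a Snord or Snora gene together with another gene, most often its host, 38 were above background with a median of 0.00. Of these, 1 was at least 1.5-fold apart, beside 7.28% of all rows with 1 symbol, from which so few rows cannot be told apart. It was a row of Snora34 with Mir1291 (10.63 and 9.89), which was named after its value was seen.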
